A study of Mus musculus with 8 samples.

Results

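The genes examined here carry the symbols of ion channel subunits and were taken by symbol, with earlier results of these data known. Every gene of the array annotation whose symbol begins with Kcn (potassium), Hcn (pacemaker), Scn and a digit (sodium) or Cacn (calcium) was taken. This gave 110 of 16593 named genes, of which 80 belonged to the potassium, 2 to the pacemaker, 8 to the sodium and 20 to the calcium class. Not all of them are opened by voltage. The Kcnj inward rectifiers, the Kcnk 2-pore leak channels and the calcium-activated Kcnn, Kcnma and Kcnmb genes carry the same prefix, so the set is called channel genes rather than voltage-gated channels. A detection p-value, which sets a probe's intensity against negative-control beads of the same array, was under 0.05 on at least 2 of 8 arrays for 47 of the 110 genes. These were 32 potassium, both pacemaker, 3 sodium and 10 calcium channel genes. Just inside that limit, 11 genes reached it on 2 arrays, such as Kcnk5 and Scn2b. Just outside, 14 genes reached it on 1 array, such as Kcna4 and Scn1a, and 49 reached it on none. Of 28 channel genes listed for their known place in the heart, 19 had a kept probe, 3 were annotated without one (Kcnd3, Kcna4, Kcnj5) and the rest were not analysed here.

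Primary ventricular cardiomyocytes (CMs) of mice were profiled on Illumina MouseRef-8 BeadChips, with 1 array for each of 8 samples of total RNA. Embryonic CMs (labelled ECM, 2 samples) came from fetal ventricles at E15.5 on a CD1 background. Hypertrophic adult cardiomyocytes (hypertrophic ACMs, labelled TAC, 3 samples) came from adult CD1 ventricles of hypertrophic hearts, 7 days after an operation that the labels do not spell out. Normal ACMs (labelled ACM, 3 samples) came from adult control ventricles on a CD1 background. No operation is recorded for the normal ACMs and no exact adult age is given, so effects of surgery and of hypertrophy cannot be told apart. Nothing says that replicates are different animals or litters, so a p-value reflects the spread among these arrays alone, and that spread may be technical.

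The median intensity of an array lay between 92.3 and 106.7, and 41.9% to 51.6% of all probes were detected. Detected channel genes numbered 33 on each embryonic array, 26, 29 and 32 on the hypertrophic arrays and 28, 26 and 30 on the normal arrays. Of 15 listed CM markers, 14 had a kept probe, and their summed level on a linear scale was 151863 to 169847 in embryonic CMs, 240181 to 245108 in hypertrophic ACMs and 231635 to 240281 in normal ACMs. By the test set out below, 8 of the 14 were lower and 1 higher in embryonic CMs than in normal ACMs. The shares of all genes tested were 22.7% and 26.2%. On a log2 scale Myh6 differed by -1.95, Tcap by -3.38 and Myh7 by 5.35, while Actn2 (0.03) and Myl2 (-0.16) were among the 5 that did not pass. The sum therefore mixes markers that went different ways. The samples were bulk RNA, in which fewer cells of a type and less RNA per cell cannot be told apart.

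A heartbeat begins when sodium channels open and depolarize the membrane, after which L-type calcium channels admit the calcium that triggers contraction. Potassium channels then carry the outward currents that repolarize the cell and hold it at rest. Hcn channels open on hyperpolarization and are known for the pacemaker current of the sinus node. Pore subunits determine which ion passes, while accessory subunits alter how many channels reach the membrane and how they open and close.

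The sequence 250 bases upstream of the start is shown for 4 genes that were lower in embryonic CMs than in normal ACMs, chosen from 3 channel classes, and for 1 gene that was higher. They are given 5' to 3' on the strand of the gene, from the RefSeq promoter table on build GRCm38.p6. Capitals mark the GC box (GGGCGG, or CCGCCC on the other strand), which zinc-finger factors such as Sp1 bind, and the MCAT element (CATTCC or GGAATG), which TEAD factors bind. The 2 motifs do not overlap in these windows. Scn4b lies at chr9:45138374-45138623 (plus strand), Hcn2 at chr10:79716384-79716633 (plus strand), Kcnd2 at chr6:21215096-21215345 (plus strand), Kcnip2 at chr19:45816064-45816313 (minus strand) and Kcne1l at chrX:142306199-142306448 (minus strand).
Scn4b: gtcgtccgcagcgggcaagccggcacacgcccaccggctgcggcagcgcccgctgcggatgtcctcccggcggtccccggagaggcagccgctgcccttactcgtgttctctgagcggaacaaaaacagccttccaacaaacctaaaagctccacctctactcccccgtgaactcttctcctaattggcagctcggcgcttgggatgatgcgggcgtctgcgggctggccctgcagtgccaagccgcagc
Hcn2: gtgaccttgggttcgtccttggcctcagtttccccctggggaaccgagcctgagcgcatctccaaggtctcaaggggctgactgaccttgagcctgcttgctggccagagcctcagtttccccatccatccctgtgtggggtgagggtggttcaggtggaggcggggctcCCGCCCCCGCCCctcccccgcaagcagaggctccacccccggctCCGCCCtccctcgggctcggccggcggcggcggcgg
Kcnd2: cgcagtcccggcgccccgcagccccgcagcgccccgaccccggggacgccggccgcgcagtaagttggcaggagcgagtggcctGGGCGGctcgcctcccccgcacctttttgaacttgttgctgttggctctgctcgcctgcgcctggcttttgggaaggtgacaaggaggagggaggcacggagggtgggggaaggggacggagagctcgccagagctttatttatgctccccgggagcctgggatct
Kcnip2: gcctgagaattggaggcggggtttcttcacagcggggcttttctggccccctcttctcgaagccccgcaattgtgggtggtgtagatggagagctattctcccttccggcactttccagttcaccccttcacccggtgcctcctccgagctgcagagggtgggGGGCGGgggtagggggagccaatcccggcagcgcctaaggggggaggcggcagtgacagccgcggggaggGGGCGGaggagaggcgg
Kcne1l: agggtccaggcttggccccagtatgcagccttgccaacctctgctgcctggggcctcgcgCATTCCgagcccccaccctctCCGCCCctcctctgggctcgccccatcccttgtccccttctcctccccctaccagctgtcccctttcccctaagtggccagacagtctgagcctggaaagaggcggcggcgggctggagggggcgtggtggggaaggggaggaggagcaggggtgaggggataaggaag
Of the 47 genes, 36 matched a promoter in the table. A GC box was found for 24 of these 36 genes and in 32.7% of all 32851 promoters. The MCAT letters were found for 4 of 36 genes and in 12.6% of all promoters. The 36 genes had 49 promoters, and a gene counted if any of its promoters held the motif. Counts per gene and shares per promoter are thus in different units and are not directly comparable. Among the promoters printed, Scn4b held neither motif and Hcn2 held 3 GC boxes. The median GC content was 60.4% for the channel promoters and 52.4% for all promoters. A match is a description of the letters and was not tied to any measured level.

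Levels are log2 intensities after background correction and quantile normalization with an offset of 16, and each gene is given by its brightest kept probe. Differences are means on that log2 scale with their standard error (SE) from 1 limma fit to 2, 3 and 3 arrays, and the p-value was adjusted by Benjamini-Hochberg over all 9803 genes with a kept probe. A gene was called when this adjusted p was under 0.05. In embryonic CMs against normal ACMs, 6 of 47 channel genes were higher (12.8%) and 16 were lower (34.0%), where 26.2% of all genes tested were higher and 22.7% were lower. The median difference was -0.26 over the channel genes, or -0.25 with genes below background in a group set to their bound, and 0.01 over all genes. Groups did not overlap for 33 of the 47 genes (70.2%), against 66.3% of all genes. The filter keeps a gene that is detected in 1 group alone. Of the 47, 5 were detected only on embryonic arrays and 10 only on adult arrays, and among the other 32 genes 4 were higher and 11 lower. In either direction 49% of all genes were called. Fewer genes were higher without embryonic replicate 1 or 2, when Kcne1l and Kcnk5 no longer passed the detection filter and the Kcne1 call was lost.

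**Figure D1:**
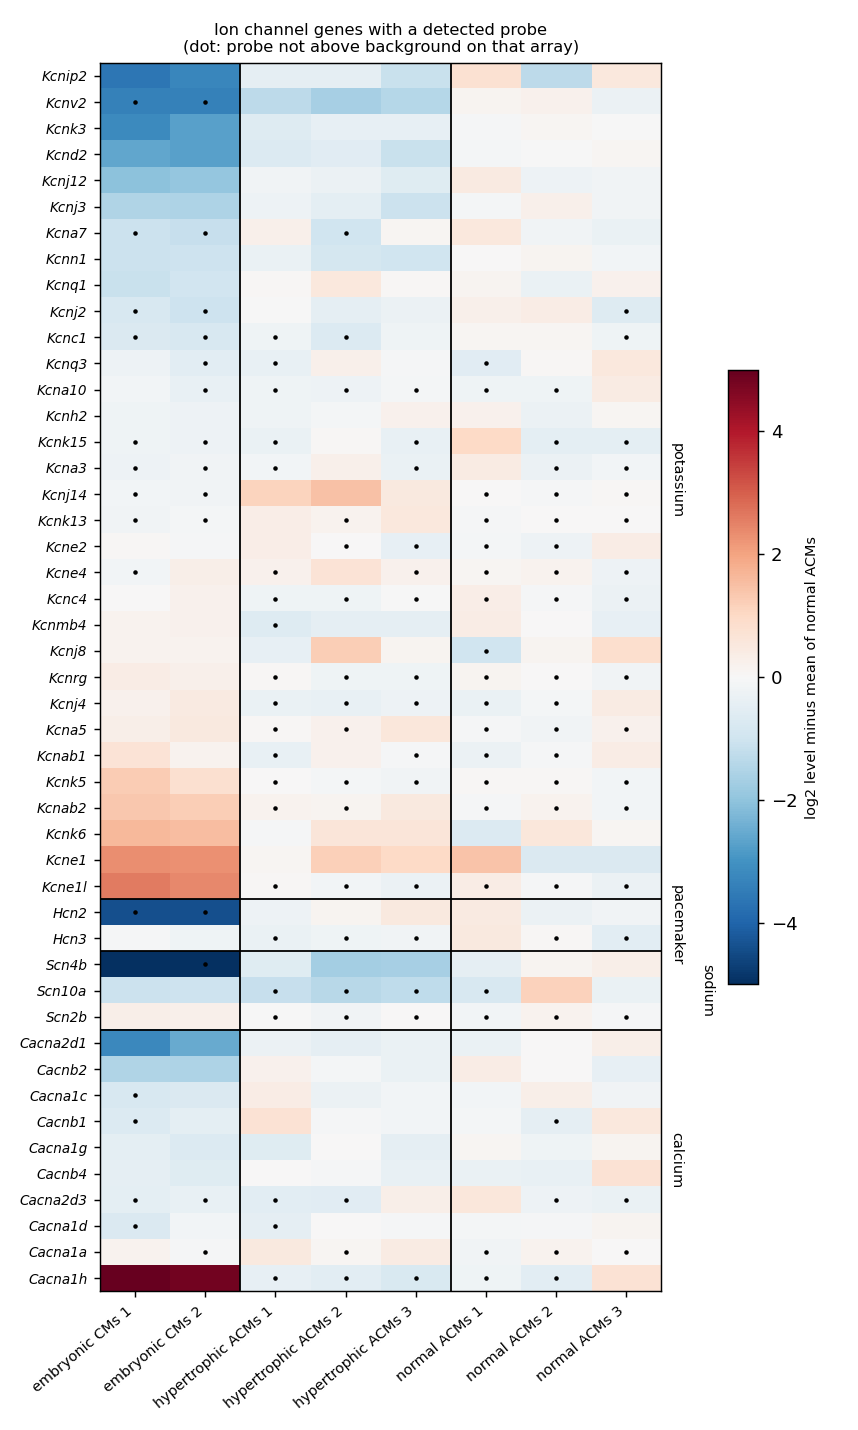
Levels of the 47 channel genes on each of the 8 arrays (columns), as the log2 difference from the mean of the normal ACM arrays, ordered within each class by the difference of embryonic CMs from normal ACMs. Dots mark a probe that was not above background on that array. Blue cells of embryonic CMs run from Kcnip2 down to Kcnc1 in the potassium class, and the darkest blue is at Scn4b and Hcn2, while Cacna1h is the darkest red.

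Sodium channel genes were represented by 3 members with a kept probe, and 1 of them was called, where 49% of all genes tested were. Scn4b, a beta subunit that joins sodium channel pores, stood at 4.81 and 4.44 in embryonic CMs, against 9.49, 10.06 and 10.22 in normal ACMs. Embryonic replicate 2 was not above background, and the groups did not overlap. The difference was -5.30 (SE 0.36, limma adjusted p = 4.7e-06), the largest fitted fall among the 47 genes. Scn10a, a pore known from sensory neurons, stood at 4.61 and 4.64 in embryonic CMs, against 4.86, 6.82 and 5.36 in normal ACMs. Its difference of -1.06 (SE 0.46) did not pass (limma adjusted p = 0.0894), and normal replicate 2 lay apart from the other two. Scn2b, another beta subunit, was detected only on the embryonic arrays, at 4.69 and 4.65, and its difference of 0.26 (SE 0.17) did not pass (limma adjusted p = 0.234). Scn10a and Scn2b fell outside the rule for named genes and were added after their values were seen.

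Both pacemaker genes of the set had a kept probe. Hcn2 stood at 4.27 and 4.28 in embryonic CMs, against 9.13, 8.36 and 8.51 in normal ACMs. It was not above background on either embryonic array and was far above it on every normal array. Taken against the lowest signals above background, Hcn2 was at least 17.1-fold lower in embryonic CMs (limma adjusted p = 3.6e-06). Such a bound compares the bright group's mean with a stand-in for the dim group, in which each array takes its own level or that of its dimmest probe above background, whichever is higher. Hcn3, the other pacemaker pore, was near background throughout, with a difference of -0.13 (SE 0.26) that did not pass.

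In the potassium class, 5 of 32 genes were higher and 11 lower in embryonic CMs than in normal ACMs. The shares over all genes tested were 26.2% higher and 22.7% lower. Both genes of the fast transient outward current, the early phase of repolarization, that are described here were lower, while Kcnd3, another of its pores, had no kept probe. Kcnd2, a pore of this current, stood at 5.41 and 5.30 in embryonic CMs, against 7.93, 8.0 and 8.13 in normal ACMs, a difference of -2.66 (SE 0.20, limma adjusted p = 9.5e-06). Kcnip2, its calcium-binding accessory subunit, stood at 4.68 and 5.02 in embryonic CMs, against 9.07, 7.00 and 8.84 in normal ACMs. Normal replicate 2 was the lowest of its group and still above both embryonic arrays, and the difference was -3.45 (SE 0.54, limma adjusted p = 0.00067). The other 2 kept probes of Kcnip2 were not above background on an embryonic array and were at least 3.06-fold and 3.21-fold lower (limma adjusted p = 0.0146 and 0.0284 over probes).

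Kcnv2 encodes a silent subunit, which forms no channel alone and changes the Kv channels it joins. It stood at 4.34 and 4.33 in embryonic CMs, neither above background, against 7.84, 7.92 and 7.42 in normal ACMs. The fall was at least 8.91-fold (limma adjusted p = 2.2e-06), with no overlap. Of the 10 voltage-gated pore genes with a kept probe, none was higher and 4 were lower, against 26.2% and 22.7% of all genes tested. The 4 were Kcnd2, Kcnq1, Kcna7 and Kcnc1. Kcnq1, the pore of the slow delayed rectifier current, stood at 6.28 and 6.44 in embryonic CMs, against 7.53, 7.07 and 7.64 in normal ACMs, a difference of -1.05 (SE 0.23, limma adjusted p = 0.0040). With arrays scaled to a common median instead, the Kcnq1 difference was -0.10 and not called, and its dimmer probe, not above background in embryonic CMs, did not pass. Kcna7 and Kcnc1, both not above background on the embryonic arrays and named after their values were seen, were at least 1.81-fold and 1.30-fold lower (limma adjusted p = 0.0341 and 0.0141).

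The pore of the rapid delayed rectifier, Kcnh2, did not pass the test. It stood at 9.57 and 9.53 in embryonic CMs, against 10, 9.51 and 9.90 in normal ACMs, where the groups overlapped, and the difference was -0.25 (SE 0.21, limma adjusted p = 0.342). Kcna5, the pore of the ultrarapid current, stood at 4.82 and 4.98 in embryonic CMs, against 4.47, 4.32 and 4.74 in normal ACMs, where no array was above background. Its difference of 0.39 (SE 0.21) did not pass (limma adjusted p = 0.162).

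**Figure D2:**
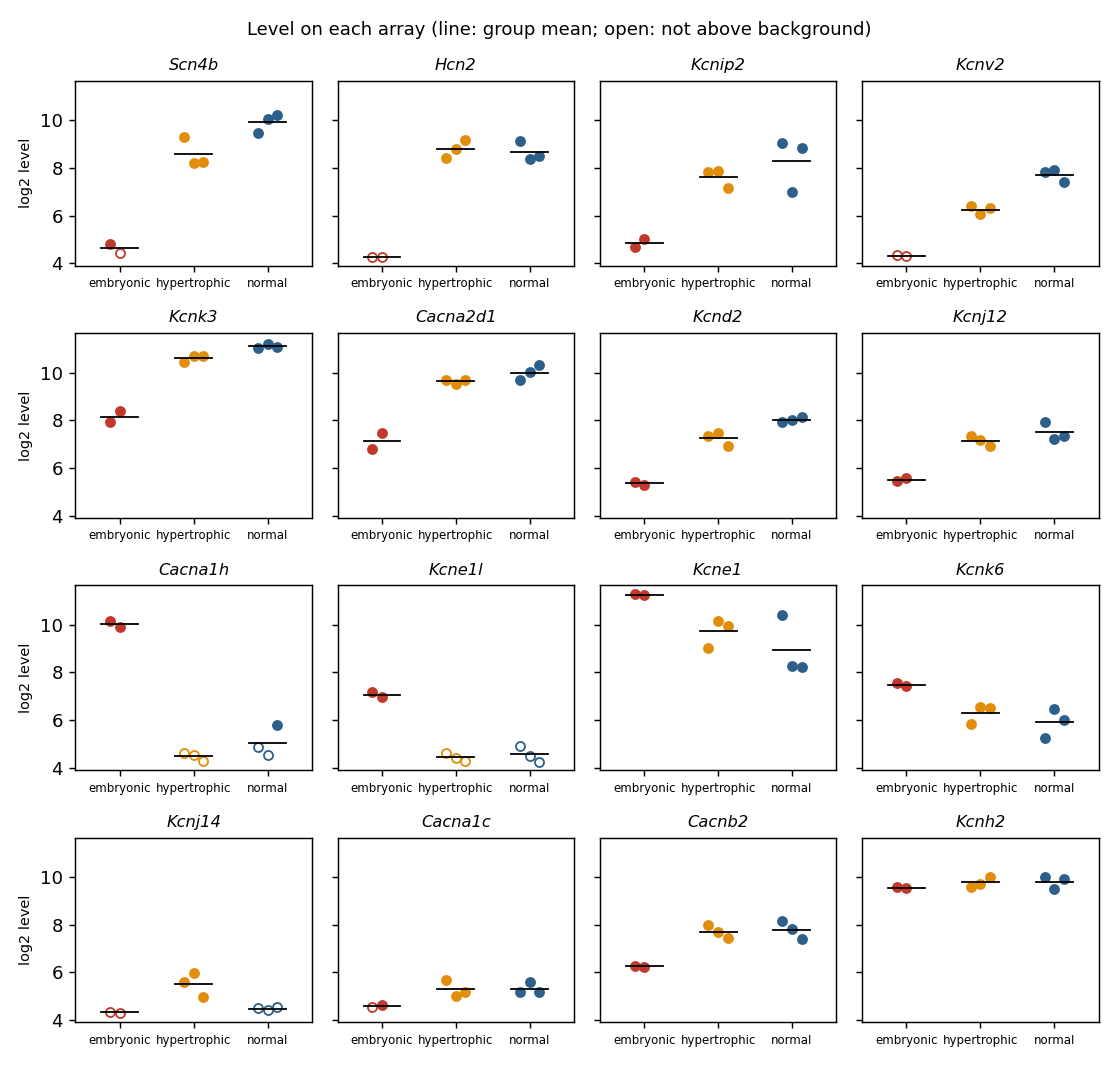
Log2 level of 16 channel genes on each array, with embryonic CMs (2 arrays), hypertrophic ACMs (3) and normal ACMs (3) from left to right. The line is the group mean, and open circles were not above background. Hcn2 is open at 4.27 and 4.28 in embryonic CMs and filled on all adult arrays, and Cacna1h is filled at 10.16 and 9.89 in embryonic CMs.

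The accessory subunits of potassium channels included 3 higher genes and 1 lower gene of 7, against 26.2% and 22.7% of all genes tested. Kcne1, the single-span partner of the Kcnq1 pore, stood at 11.30 and 11.24 in embryonic CMs, against 10.40, 8.25 and 8.22 in normal ACMs. Normal replicate 1 was well above the other two of its group and below both embryonic arrays. The difference was 2.32 (SE 0.61, limma adjusted p = 0.0118). The call was lost without embryonic replicate 1 or 2 and with the authors' normalized values, and over 20 alternatives the limma adjusted p was 0.000184 to 0.0582. Of the other 3 kept Kcne1 probes, 1 was not above background on any normal array and was at least 1.72-fold higher (limma adjusted p = 0.0137 over probes). The other two were above background on 1 normal array and on none, and did not pass.

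Kcne1l, a further single-span subunit on the X chromosome, stood at 7.16 and 6.95 in embryonic CMs, against 4.92, 4.50 and 4.26 in normal ACMs. None of the normal arrays was above background, which puts the embryonic excess at 4.49-fold or more (limma adjusted p = 2.4e-05). Kcnab2, a cytosolic beta subunit, stood at 5.69 and 5.57 in embryonic CMs, against 4.29, 4.52 and 4.23 in normal ACMs, again with no normal array above background. It was at least 1.67-fold higher (limma adjusted p = 0.00036).

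Inward rectifiers hold the resting potential. Of 6 with a kept probe, 3 were lower and none higher, against 22.7% and 26.2% of all genes tested. Kcnj12, a strong rectifier, stood at 5.43 and 5.58 in embryonic CMs, against 7.93, 7.23 and 7.33 in normal ACMs, a difference of -1.99 (SE 0.24, limma adjusted p = 0.000138). Kcnj3, a pore of the acetylcholine-gated current, stood at 4.73 and 4.67 in embryonic CMs, against 6.13, 6.48 and 6.06 in normal ACMs, a difference of -1.52 (SE 0.26, limma adjusted p = 0.0010). In both genes every embryonic array lay below every normal array. Kcnj2, the other main strong rectifier of ventricle, stood at 4.56 and 4.30 in embryonic CMs, neither above background, against 5.61, 5.71 and 4.71 in normal ACMs. It was at least 1.71-fold lower (limma adjusted p = 0.0286). The Kcnj2 call was lost without embryonic replicate 1 or 2 or normal replicate 1 or 2. It was also lost without background correction (-0.32), with an offset of 50 (-0.44), with the authors' normalized values (-0.74), without the detection filter and with only the 2 groups fitted, and the limma adjusted p ran from 0.00166 to 0.184 over 20 alternatives. Kcnj8, a pore of the ATP-sensitive channel, stood at 5.67 and 5.67 in embryonic CMs, between the 4.48, 5.63 and 6.33 of normal ACMs, and its difference of 0.19 (SE 0.56) did not pass.

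The 2-pore leak channels went in both directions, with 2 of 5 higher and 1 lower, against 26.2% and 22.7% of all genes tested. Kcnk3, an acid-sensitive background channel, stood at 7.93 and 8.37 in embryonic CMs, against 11.03, 11.19 and 11.07 in normal ACMs. The difference was -2.95 (SE 0.19, limma adjusted p = 3.6e-06). Kcnk6 stood at 7.54 and 7.44 in embryonic CMs, against 5.24, 6.46 and 6.02 in normal ACMs, a difference of 1.58 (SE 0.35, limma adjusted p = 0.0044), and its second kept probe, not above background on any normal array, was at least 1.63-fold higher (limma adjusted p = 0.0139 over probes). Kcnk5, detected only on the embryonic arrays at 5.69 and 5.24, was at least 1.48-fold higher than in normal ACMs, which stood at 4.50, 4.50 and 4.29 (limma adjusted p = 0.0016). Of the calcium-activated genes, Kcnn1, a small-conductance pore named after its value was seen, was lower by a difference of -1.05 (SE 0.22, limma adjusted p = 0.0032).

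**Figure D3:**
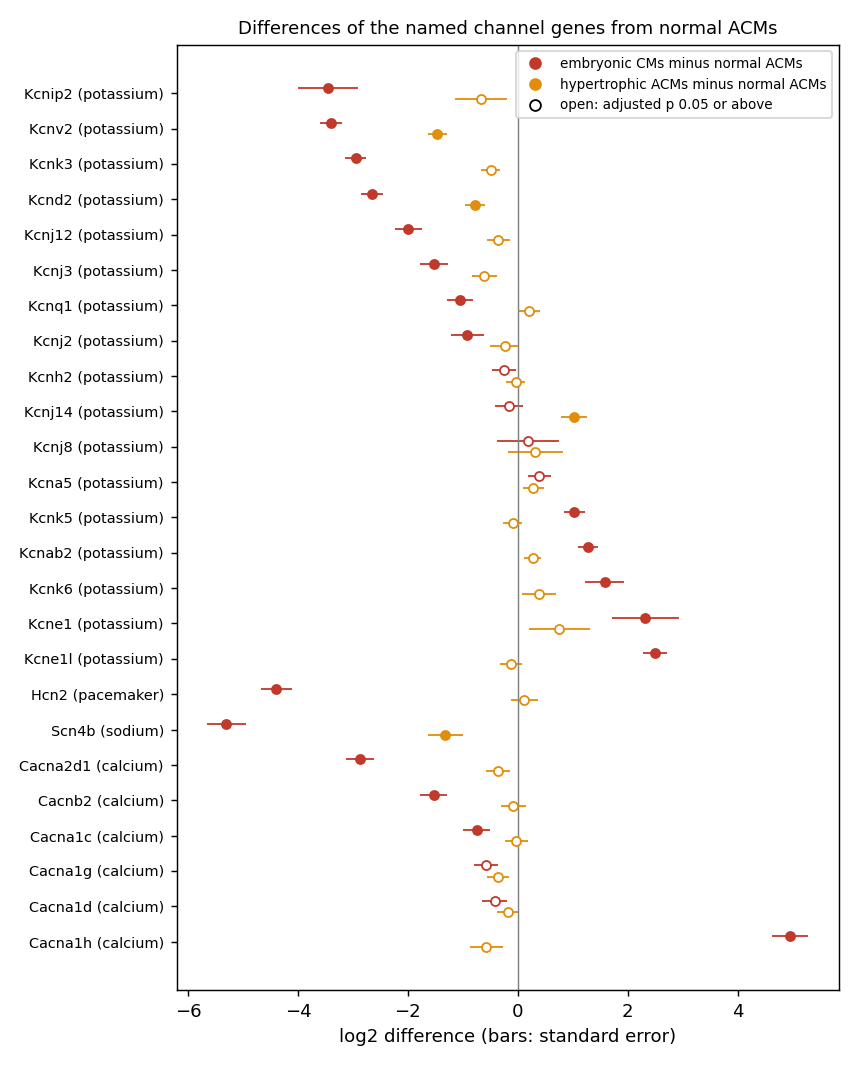
Log2 differences of the 25 channel genes named by rule, embryonic CMs minus normal ACMs in red and hypertrophic ACMs minus normal ACMs in orange, with bars of 1 SE. Open circles have a limma adjusted p of 0.05 or above. Red points extend from -5.30 at Scn4b to 4.96 at Cacna1h, and filled orange points occur at Kcnv2, Scn4b, Kcnd2 and Kcnj14.

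In the calcium class, 1 of 10 genes was higher and 3 were lower in embryonic CMs than in normal ACMs. Among all genes tested, 26.2% were higher and 22.7% lower. Cacna1h, a T-type pore that opens at more negative potentials than the L-type, stood at 10.16 and 9.89 in embryonic CMs, against 4.86, 4.54 and 5.79 in normal ACMs. It was above background on 1 of the 3 normal arrays, replicate 3, and the gap between the groups was far wider than the spread within either. The difference was 4.96 (SE 0.33, limma adjusted p = 4.5e-06), the largest fitted rise among the 47 genes. Cacna1g, the other T-type pore of the heart, stood at 6.16 and 5.97 in embryonic CMs, against 6.75, 6.42 and 6.76 in normal ACMs. The groups did not overlap, and the difference of -0.58 (SE 0.22) did not pass (limma adjusted p = 0.0545). The second kept probe of Cacna1g differed by 0.02 (SE 0.28) and did not pass.

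The 3 lower genes were the L-type pore Cacna1c and the accessory subunits Cacna2d1 and Cacnb2, and the other 3 accessory genes with a kept probe, Cacnb1, Cacnb4 and Cacna2d3, did not pass. Cacna2d1, the subunit that aids delivery of the pore to the membrane, stood at 6.78 and 7.47 in embryonic CMs, against 9.67, 10.03 and 10.30 in normal ACMs, a difference of -2.87 (SE 0.25, limma adjusted p = 2.2e-05). Cacnb2, the cytosolic beta subunit, stood at 6.27 and 6.23 in embryonic CMs, against 8.17, 7.80 and 7.38 in normal ACMs. The difference was -1.53 (SE 0.25, limma adjusted p = 0.000935), and it was -0.61 and not called with arrays scaled to a common median. The second kept probe of Cacnb2 differed by -1.31 (SE 0.49) and did not pass (limma adjusted p = 0.0519 over probes). In both of these genes all embryonic arrays lay below all normal arrays. Cacna1c, the L-type pore itself, stood at 4.53 and 4.61 in embryonic CMs, against 5.19, 5.60 and 5.16 in normal ACMs, a difference of -0.75 (SE 0.24, limma adjusted p = 0.0265). That call was lost without embryonic replicate 1 or 2 or normal replicate 2. It was also lost without background correction (-0.23), with an offset of 50 (-0.36), with median scaling (-0.54) and with the authors' normalized values (-0.56), and the limma adjusted p was 0.0126 to 0.304 over 20 alternatives. The second kept probe of Cacna1c, above background on no embryonic and on 1 normal array, did not pass (limma adjusted p = 0.1015 over probes). Cacna1d, a second L-type pore known from the sinus node and atrium, stood at 4.42 and 5.01 in embryonic CMs, against 5.04, 5.09 and 5.27 in normal ACMs, and its difference of -0.42 (SE 0.23) did not pass (limma adjusted p = 0.16).

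**Figure D4:**
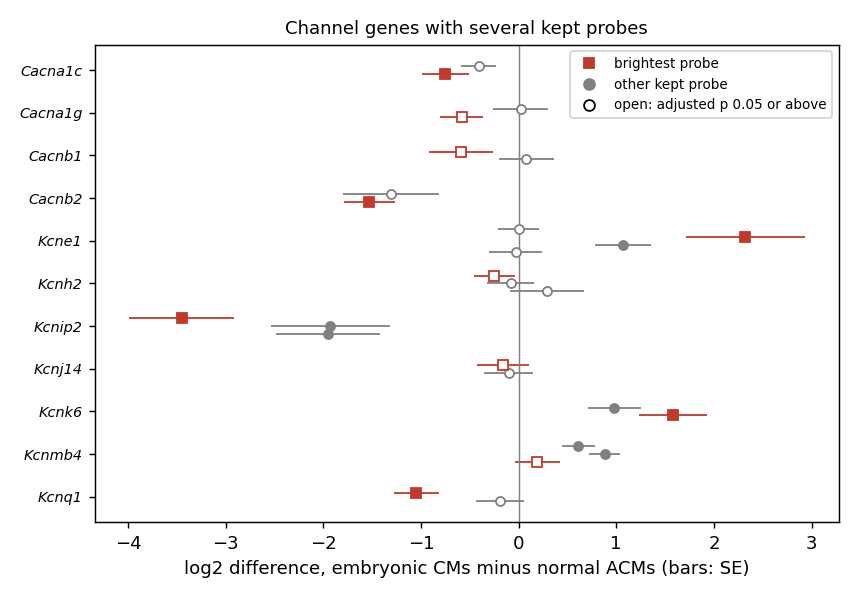
Log2 differences of embryonic CMs minus normal ACMs for channel genes with several kept probes, with bars of 1 SE. The square is the brightest probe, circles are the others, and open symbols have a limma adjusted p of 0.05 or above. The 3 probes of Kcnip2 all lie below 0, while Kcne1 has 2 probes near 0 and Kcnmb4 has 2 dimmer probes, not above background on any normal array, that are higher beside an open brightest probe.

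The hypertrophic ACMs were set against the same normal arrays, so both comparisons share the control samples. In hypertrophic ACMs, 1 of 47 channel genes was higher (2.13%) and 3 were lower (6.38%), where 3.84% of all genes tested were higher, 1.83% lower and 5.66% called in either direction. The median difference was -0.14 over the channel genes (-0.13 with bounds) and -0.02 over all genes, and groups did not overlap for 11 of 47 (23.4%), against 25.3% of all genes. Kcnv2 stood at 6.41, 6.07 and 6.31 in hypertrophic ACMs, against 7.84, 7.92 and 7.42 in normal ACMs. Every hypertrophic array lay below every normal array, and the difference was -1.46 (SE 0.18, limma adjusted p = 0.00265), a call that none of the 20 alternatives ended. Kcnd2 stood at 7.34, 7.47 and 6.90 in hypertrophic ACMs, against 7.93, 8.0 and 8.13 in normal ACMs, a difference of -0.78 (SE 0.18, limma adjusted p = 0.0405). Scn4b stood at 9.32, 8.21 and 8.27 in hypertrophic ACMs, against 9.49, 10.06 and 10.22 in normal ACMs, a difference of -1.32 (SE 0.32, limma adjusted p = 0.0465). Neither gene's groups overlapped. The Kcnd2 call was lost when any 1 of the 8 arrays was left out, with median scaling, with the authors' normalized values, with a variance trend and with only the 2 groups fitted (limma adjusted p 0.0214 to 0.122 over 20 alternatives). The Scn4b call was lost without embryonic replicate 1 or 2, normal replicate 2 or 3, or hypertrophic replicate 2 or 3, with the authors' normalized values, without the detection filter and with only the 2 groups fitted (limma adjusted p 0.0131 to 0.157 over 20 alternatives).

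The 1 higher gene was Kcnj14, an inward rectifier. It stood at 5.61, 5.96 and 4.96 in hypertrophic ACMs, all above background, against 4.49, 4.41 and 4.55 in normal ACMs, none above background. It was at least 1.53-fold higher (limma adjusted p = 0.0406). The second kept probe of Kcnj14, near background, was above it on no hypertrophic and on 1 normal array. It did not show the rise, with a difference of -0.15 (SE 0.22, limma adjusted p = 0.764 over probes). With the mean of kept probes the Kcnj14 difference was 0.43 and not called (limma adjusted p = 0.25). The call was lost when any array other than hypertrophic replicate 3 was left out, and 16 of 20 alternatives ended it (limma adjusted p 0.0131 to 0.295). The count of lower genes was 1 without embryonic replicate 1 or 2, normal replicate 3, or hypertrophic replicate 2 or 3.

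The remaining 43 channel genes did not pass in hypertrophic ACMs, among them both pacemaker and all 10 calcium channel genes with a kept probe, of which 0 reached an unadjusted p under 0.05 by limma. Hcn2 stood at 8.41, 8.79 and 9.17 in hypertrophic ACMs, overlapping the normal arrays, with a difference of 0.12 (SE 0.25). Cacnb2 stood at 8.0, 7.68 and 7.44 in hypertrophic ACMs, also within the spread of normal ACMs, with a difference of -0.08 (SE 0.23). Kcnk3 stood at 10.44, 10.70 and 10.68 in hypertrophic ACMs, all below the 11.03, 11.19 and 11.07 of normal ACMs. Its difference of -0.49 (SE 0.17) did not pass (limma adjusted p = 0.137). Kcnj3, at 5.98, 5.73 and 5.14 in hypertrophic ACMs, likewise lay below all normal arrays, and its difference of -0.61 (SE 0.23) did not pass (limma adjusted p = 0.174). Kcnn1, with 6.68, 6.16 and 6.03 in hypertrophic ACMs and 7.02, 7.16 and 6.88 in normal ACMs, differed by -0.73 (SE 0.19, limma adjusted p = 0.0638). Scn10a stood at 4.54, 4.31 and 4.42 in hypertrophic ACMs, none above background, and its difference of -1.26 (SE 0.42) did not pass (limma adjusted p = 0.123).

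Embryonic CMs against hypertrophic ACMs gave 7 higher (14.9%) and 14 lower (29.8%) of 47 channel genes, where 23.8% of all genes tested were higher, 19.7% lower and 43.5% called in either direction. Groups did not overlap for 33 of the 47 (70.2%), against 65.8% of all genes. This contrast is also the test of whether the embryonic and hypertrophic differences from normal ACMs differ. For the 3 genes lower in both, the embryonic fall was the larger. Scn4b differed by -3.97 (SE 0.36, limma adjusted p = 3.5e-05) between embryonic CMs and hypertrophic ACMs. Kcnd2 differed by -1.88 (SE 0.20, limma adjusted p = 9.7e-05). Kcnv2, not above background in embryonic CMs, was at least 3.23-fold lower than in hypertrophic ACMs (limma adjusted p = 8.0e-05). Kcnj14 was at least 1.92-fold lower in embryonic CMs than in hypertrophic ACMs (limma adjusted p = 0.0059).

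Genes called higher against hypertrophic ACMs were Cacna1h, Kcne1l, Kcnk5, Kcnk6, Kcnab2, Kcnmb4 and Kcnj4. Cacna1h was not above background on any hypertrophic array, at 4.64, 4.55 and 4.30, so its excess in embryonic CMs was at least 39.1-fold (limma adjusted p = 3.2e-06). Kcne1l stood at 4.61, 4.43 and 4.27 in hypertrophic ACMs, also below background, so its excess in embryonic CMs was at least 5.0-fold (limma adjusted p = 2.4e-05). Kcne1, at 9.04, 10.16 and 9.95 in hypertrophic ACMs, did not pass there, with a difference of 1.55 (SE 0.61, limma adjusted p = 0.0678). Kcnmb4, a beta subunit of the large-conductance calcium-activated channel, and Kcnj4, an inward rectifier, were named after their values were seen. Their differences were 0.70 (SE 0.23, limma adjusted p = 0.0335) and, with no hypertrophic array above background, a rise of at least 1.22-fold (limma adjusted p = 0.0484). The count of higher genes was 2 without embryonic replicate 1 or 2 and 4 without hypertrophic replicate 1.

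Genes that work with these channels were described from lists set out beside the channel genes, with earlier results of these data known. Counts for these lists, and for the connexins and transcription factors below, therefore describe the listed genes only. Of 28 partners and anchors, 20 had a kept probe, and 3 were higher and 13 lower in embryonic CMs than in normal ACMs (15.0% and 65.0%, median difference -0.78). Over all genes tested 26.2% were higher and 22.7% lower. Ank2, the adaptor ankyrin-B, differed by -2.16 (SE 0.17). Abcc8 and Abcc9, the sulfonylurea receptors that pair with ATP-sensitive pores, differed by -2.07 (SE 0.30) and -1.98 (SE 0.20). Bin1, which shapes T-tubule membrane, was higher by 2.65 (SE 0.38). In hypertrophic ACMs Bin1 was higher by 1.62, Abcc9 was lower by a difference of -0.83, and the other 18 did not pass. Of 26 pumps, exchangers and release channels, 16 had a kept probe, and 2 were higher and 9 lower in embryonic CMs (12.5% and 56.2%). Pln, the inhibitor of the calcium pump, differed by -1.60 (SE 0.21) and Ryr2, the calcium release channel, by -1.46 (SE 0.29). None of the 16 passed in hypertrophic ACMs by limma, and at an unadjusted p under 0.05 there were 2 higher and 2 lower.

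Connexins carry current between cells. Of 5 with a kept probe, 3 were higher and none lower in embryonic CMs, against 26.2% and 22.7% of all genes tested. Gja5, known from atrium and conduction system, stood at 11.11 and 11.32 in embryonic CMs, against 5.82, 6.40 and 5.46 in normal ACMs. Gja1, the main ventricular connexin, differed by -0.37 (SE 0.18) and did not pass. In hypertrophic ACMs Gja4 alone was called, higher by 0.97. Of 21 measured transcription factors linked to channel genes, 6 were higher, 28.6% and so near the 26.2% of all genes, and none lower, against 22.7% of all genes, in embryonic CMs (median difference 0.37). Of the 21, none passed in hypertrophic ACMs by limma, where an unadjusted p under 0.05 was reached by 1 higher gene and 0 lower genes. Hey2, a ventricular repressor, stood at 9.28 and 9.39 in embryonic CMs, against 5.04, 5.44 and 4.94 in normal ACMs. Irx5, known for the transmural gradient of Kcnd2 in mouse ventricle, was higher by 0.78 (SE 0.28, limma adjusted p = 0.041), and Irx3 differed by -0.58 (SE 0.25) and did not pass.

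Markers of other cell types differed between groups to an extent that varied by list, and their part in the channel results was not tested. Sums are over listed genes with a kept probe, on a linear scale. For fibroblast markers, 12 of 14, the summed level was 5908 to 6498 in embryonic CMs, 7208 to 11712 in hypertrophic ACMs and 2017 to 3536 in normal ACMs. Of the 12, 9 were higher and 1 lower in embryonic CMs than in normal ACMs, against 26.2% and 22.7% of all genes tested. In hypertrophic ACMs 9 of the 12 were higher than in normal ACMs, against 3.84% of all genes tested. Endothelial markers summed to 8847 to 11103 in embryonic CMs, 5164 to 7553 in hypertrophic ACMs and 3608 to 6635 in normal ACMs. In embryonic CMs 7 of 12 were higher and 2 lower than in normal ACMs, against 26.2% and 22.7% of all genes tested. In hypertrophic ACMs 2 of the 12 were higher and 0 lower, against 3.84% and 1.83% of all genes tested. The endothelial sums of hypertrophic and normal ACMs overlapped. Erythroid markers summed to 34468 to 34723 in embryonic CMs, 166 to 3430 in hypertrophic ACMs and 161 to 1338 in normal ACMs. Atrial and conduction markers summed to 63179 to 64548 in embryonic CMs, 32711 to 43304 in hypertrophic ACMs and 15496 to 34528 in normal ACMs. Hypertrophic replicate 3 stood above the other two of its group in Sln (12.12, against 9.43 and 8.93), Myl7 (9.83, against 7.95 and 8.22) and Myl4 (13.24, against 11.75 and 11.41). Of the other atrial and conduction markers with a kept probe, Nr2f2 and Shox2 were also highest on that array. Nppa and Isl1 were lowest there, and Nr2f1, Tbx3 and Ntm lay between the other arrays of the group. Without hypertrophic replicate 3, 1 channel gene was higher and 1 lower in hypertrophic ACMs than in normal ACMs. The lower count was also 1 without hypertrophic replicate 2 or normal replicate 3. Neuron and Schwann cell markers summed to 545 to 702 in embryonic CMs, 319 to 346 in hypertrophic ACMs and 205 to 465 in normal ACMs. Of the 14 listed, 10 had no kept probe above background on a normal array. Of 13 smooth muscle and pericyte markers, 4 were higher and 4 lower in embryonic CMs, and 3 higher and 2 lower in hypertrophic ACMs. Of 8 leukocyte markers 2 were higher and 0 lower in embryonic CMs, and of 8 epicardial markers 5 and 0. None of either list was called in hypertrophic ACMs. Shares of all genes were 26.2% higher and 22.7% lower in embryonic CMs, and 3.84% and 1.83% in hypertrophic ACMs.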

How the data were processed

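Total RNA of 2 embryonic CM, 3 hypertrophic ACM and 3 normal ACM samples was read on 1 BeadChip array each. The authors deposited a linear mean bead intensity for every probe, read out in GenomeStudio (version 2011 in the submitters' processing notes) with neither background subtraction nor normalization. A detection p-value, also deposited, accompanied each intensity. A second deposited table of intensity values, background-subtracted and quantile-normalized by the authors, served as an alternative, with values under 16 raised to 16. Data on single cells and on CMs dedifferentiated in culture were left aside.

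Background correction by neqc (offset 16, background inferred from the detection p-values) and quantile normalization were run with limma 3.58.1 in R 4.3.3. Of 25697 probes, 1719 without a gene symbol were left out. A probe was kept when its detection p was under 0.05 on 2 or more of the 8 arrays, and the brightest kept probe stood for its gene, which left 9803 genes. One linear model held the 3 groups (lmFit, contrasts.fit, eBayes), and p-values were adjusted by Benjamini-Hochberg over all genes. Simulated arrays, with changes planted only in probes detected on all 8 arrays, were used to test the fit. They could not test genes near background. The channel genes, lists and tests were chosen with earlier results of these data known.

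Genes given array by array were those past the threshold in hypertrophic ACMs, up to 6 per class and direction by smallest p in embryonic CMs, and 28 listed cardiac channels with a kept probe. Others are said to have been named after their values were seen. Alternatives covered background correction, scaling, offset, filters, probe summaries, variance models, array weights, the groups fitted, the replicate number as a block and leaving out each array. Precision is limited by the number of arrays. The chip that held each array was not known here, so no chip effect was modelled. Tables were handled in pandas 2.3.3 and figures drawn in matplotlib 3.10.9 under Python 3.11.15.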

Additional observations from a re-analysis of the deposited data

How the results depend on the processing

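The count of channel genes lower in embryonic CMs, 16 against normal ACMs and 14 against hypertrophic ACMs, stayed within 1.5 times of these values under all alternatives run (12 to 17 and 11 to 15 with 1 array left out). Counts of higher genes were less steady. The 6 genes higher in embryonic CMs than in normal ACMs became 10 with median scaling and 3 to 7 with 1 array left out. Median scaling moved the median difference of all genes to 0.52 in this comparison and to 0.48 against hypertrophic ACMs, from near 0. The 7 genes higher than in hypertrophic ACMs became 4 with the authors' normalized values and 2 to 8 with 1 array left out. In hypertrophic ACMs against normal ACMs, the 1 higher gene became 0 without background correction, with median scaling, the authors' values, an offset of 50, no detection filter, the mean of kept probes, array weights, only the 2 groups fitted and the replicate block, and 0 to 1 with 1 array left out. The 3 lower genes became 1 with the authors' values, with only the 2 groups fitted and with the replicate block, and 1 to 3 with 1 array left out. Same-numbered samples correlated by -0.10 to 0.13 after group means were removed, so the numbers were not taken to pair the samples. The Kcnd2, Scn4b and Kcnj14 calls in hypertrophic ACMs were among those lost with the block. The cause of these shifts was not tested.

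Differences that changed sign were all uncalled. With median scaling they were Cacna1g (0.36) and Kcnh2 (0.43) in embryonic CMs and Cacna1c (0.06) and Cacnb2 (0.01) in hypertrophic ACMs, each against normal ACMs. Array weights gave 0.02 for Cacna1c, and the mean of kept probes gave 0.14 for Cacnb2 and 0.20 for Kcnh2, in hypertrophic ACMs. With 1 array left out, the ranges in hypertrophic ACMs were -0.23 to 0.12 for Cacna1c, -0.29 to 0.11 for Cacnb2, -0.07 to 0.35 for Hcn2, -0.29 to 0.06 for Kcne1l, -0.18 to 0.06 for Kcnh2 and -0.19 to 0.76 for Kcnj8, and -0.31 to 0.64 for Kcnj8 in embryonic CMs. Of 1377 values of named genes under alternatives, 1258 kept their direction and side of the threshold, 82 lost a call, 16 gained one and 21 changed sign. No value could be had in 23 cases. In 5 of them both groups stood at the floor of the authors' values, and in 18, without either embryonic replicate or with detection required on 3 arrays, Kcne1l or Kcnk5 had no kept probe. Levels near background, as in Cacna1c, Kcnj2 and Kcnj14, limit what these arrays can resolve.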
